A study of Mus musculus with 12 samples.

Results

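The genes described here are 35 genes of the type I interferon response, chosen by symbol: 4 sensors, 3 factors of the STAT and IRF families, 17 antiviral effectors and 11 regulators and other response genes. The gene tables list 55450 genes, 13636 of which had enough counts to be tested, and all 35 members were among those tested. The cells were CD8 T cells of pmel-1 mice, which carry a transgenic receptor for a peptide of the melanoma antigen gp100, with a wild-type Ucp2 gene in every group. They had been activated with that peptide at 1 μM or with antibodies to CD3 at 2 μg/ml and CD28 at 1 μg/ml, then grown in IL-2 at 10 ng/ml for 4 days. The labels do not say which of these stimuli was used. In the first group the cells received genipin, a plant compound used as an inhibitor of the mitochondrial carrier Ucp2. The second group received genipin with N-acetylcysteine (NAC), a thiol compound that supplies cysteine, the third received NAC alone, and the fourth received vehicle, which was culture medium. Each group had 3 libraries of total RNA depleted of ribosomal RNA. The labels give no doses for genipin or NAC. They also do not say whether replicates came from separate mice or cultures, so a p-value here reflects the spread among the libraries alone, and that spread may be technical.

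In the type I interferon response, sensors of viral nucleic acid in the cytosol induce interferon, which binds the receptor Ifnar1 and Ifnar2. The kinases Jak1 and Tyk2 then phosphorylate STAT proteins, Stat2 among them, and a complex with Irf9 binds interferon-stimulated response elements in promoters. The products block viral replication, and some of them, such as Usp18, dampen the signal. T cells express many of these genes at a low tonic level without infection.

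Library totals ran from 20838894 to 31098648 expected counts. Genipin plus NAC replicate 1 stood apart from its group. Its counts differed from those of the other 2 replicates with chi-square values per degree of freedom of 6.77 and 7.75, against 2.08 to 2.89 for all other replicate pairs. Mitochondrially encoded RNA made up 2.06% to 2.19% of counts in genipin libraries and 1.59% to 1.81% in the other 9, and its part in the results was not tested. Among 10 markers of CD8 T cells, 3 were higher and 5 lower with NAC against vehicle (edgeR quasi-likelihood adjusted p under 0.05). Of all genes tested, 29.6% were higher and 30% lower there. Cd8a averaged 367.7 TPM with NAC and 185.6 in vehicle, and Thy1 averaged 950.1 and 1081. The 10 CD8 T cell markers summed to 4272 to 4334 TPM with genipin, 4767 to 4803 with genipin plus NAC, 4048 to 4117 with NAC and 3863 to 3942 in vehicle. The 6 macrophage and monocyte markers summed to 2.86 to 3.05, 1.89 to 2.34, 0.6 to 1.17 and 1.12 to 1.61 TPM in the same order, mostly Cd14. Lyz2 did not exceed 0.36 TPM and Csf1r did not exceed 0.02 TPM in any library. The 5 dendritic cell markers, led by Itgax, summed to 6.54 to 7.97 TPM with genipin, 9.15 to 10.6 with genipin plus NAC, 3.89 to 4.05 with NAC and 4.94 to 5.64 in vehicle. Itgax averaged 6.80 TPM with genipin and 3.86 in vehicle. Flt3 and Zbtb46 went the other way, at 0.08 and 0.31 TPM with genipin and 0.45 and 0.98 in vehicle. Xcr1 and Clec9a did not exceed 0.03 and 0.02 TPM in any library. The 6 B cell markers, nearly all Cd79b, summed to 1.12 to 1.83 TPM with genipin, 4.97 to 7.63 with genipin plus NAC, 10.9 to 13.3 with NAC and 2.63 to 2.88 in vehicle. The B cell gene Ms4a1 stayed at or below 0.03 TPM. Of 6 markers of plasmacytoid dendritic cells, a cell type known for producing interferon, Siglech and Klk1 had no count in any library. All 6 of those markers, mostly Pacsin1 and Cox6a2, summed to 0.42 to 0.56 TPM with genipin, 3.34 to 4.38 with genipin plus NAC, 6.42 to 9.92 with NAC and 0.85 to 0.99 in vehicle. The 4 natural killer markers summed to 49.6 to 50.3 TPM with genipin, 34.71 to 37.53 with genipin plus NAC, 19.8 to 20.7 with NAC and 25.2 to 27.5 in vehicle, mostly Eomes, and the 4 CD4 T cell markers to 18.2 to 21.6, 21.3 to 26.4, 37.1 to 43.1 and 15.6 to 19.8 TPM in the same order, mostly Zbtb7b. Of the natural killer markers, Ncr1 averaged 1.98 TPM with genipin and 0.06 in vehicle, Klrb1c 5.25 and 1.54, and Klre1 2.23 and 2.01. Of the CD4 T cell markers, Cd4 averaged 0.29 TPM with genipin, 1.08 with genipin plus NAC, 2.23 with NAC and 0.59 in vehicle. Cd40lg averaged 0.04, 0.15, 0.42 and 0.48 TPM in the same order, and Zbtb7b 20.1, 23.2, 37.1 and 16.2. Foxp3 did not exceed 0.16 TPM in any library. The part of these cell types in the results was not tested.

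Levels are given as deposited TPM (transcript abundance per length, scaled to a common total in each library), and differences as log2 fold changes fitted to counts with scaled library totals. These scales are offset, so statements that libraries overlapped or stood apart refer to TPM and can differ on the count scale. The median ratio of mean TPM over genes tested was 0.13 (log2) for genipin against vehicle, 0.19 for NAC against vehicle and -0.12 for genipin plus NAC against NAC. The medians of the fitted log2 fold changes lay at -0.01, -0.01 and 0.01 in the same comparisons. Of 149 calls on members in the 5 comparisons of groups, 148 had the same direction in mean TPM, and the exception was Sp100 in genipin plus NAC against NAC. Ifi44 kept its direction only narrowly, at means of 0.3467 TPM with NAC and 0.35 in vehicle.

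NAC lowered nearly all of these genes, with or without genipin, whereas genipin alone gave changes in both directions, from -1.25 on the log2 scale for Usp18 to 1.959 for Ifit3 and 2.58 for the low-count Ifit3b. With NAC against vehicle, 32 of the 35 members were lower and 2 were higher at an adjusted p under 0.05, and Ifit3b was not called. Over all genes tested, 30% were called lower and 29.6% higher in that comparison. The median log2 fold change was -0.98 over the members and -0.01 over all genes tested. Falls reached at least 2-fold in 16 members and at least 4-fold in 7, namely Irf7, Mx1, Mx2, Oas1a, Cmpk2, Isg15 and Rtp4. In bulk RNA, fewer cells with a transcript and less of that transcript per cell cannot be told apart.

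With genipin against vehicle, 18 members were higher, 8 were lower and 9 were not called, beside 29.9% of all genes called higher and 31% called lower. The median log2 fold change of the members was 0.12. With genipin plus NAC against vehicle, 32 members were lower, Ifit2 and Samd9l were higher and Ddx58 was not called, beside 28.9% of all genes lower and 28.5% higher. The median of the members was -0.69 there. Genipin plus NAC against genipin gave 31 members lower, none higher and 4 not called, beside 34.3% of all genes lower and 35% higher, and the median was -0.75. These comparisons share libraries, so their values stand side by side and are not independent. Without genipin plus NAC replicate 1, 31 members were lower against vehicle and 32 were lower against genipin.

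**Figure D1:**
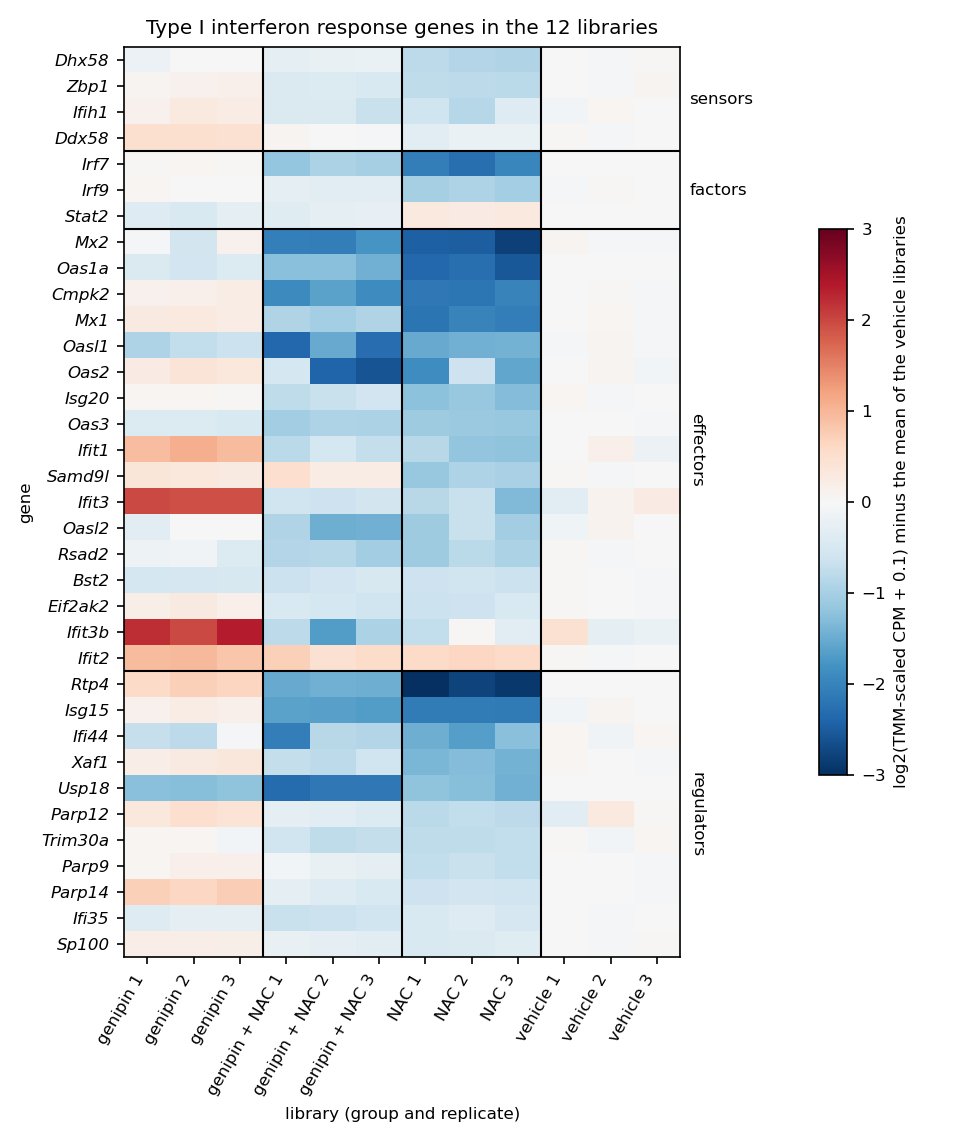
Colour gives log2(CPM + 0.1), CPM being counts scaled to the adjusted library total, minus the mean of the 3 vehicle libraries, for 35 members (rows, by role) in 12 libraries (columns). NAC and genipin plus NAC libraries are blue in most rows, and genipin libraries are red for Ifit1, Ifit2, Ifit3 and Ifit3b and blue for Usp18.

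The mean TPM was highest with genipin for 25 of the 35 members, in vehicle for 9 and with NAC for Stat2 alone. It was lowest with NAC for 22, with genipin plus NAC for 12 and in vehicle for Ifit2. By CPM, 22 members were highest with genipin and 11 in vehicle, and 27 were lowest with NAC. The same count over all genes was not made. The highest level was that of Bst2, with a mean of 255 TPM over the 12 libraries, followed by Sp100 with 151 TPM. Ifi35, Isg20, Parp9 and Zbp1 had means of 60.4, 58.5, 53.3 and 50.6 TPM. Ifi44, Ifit3b and Oas2 were the lowest, with means of 0.28, 0.297 and 0.366 TPM, and each had under 50 counts in every library.

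The promoters of the members were searched for the core of the interferon-stimulated response element, written GAAANNGAAA, and for the STAT site TTCNNNGAA. Both were searched on both strands in windows of 250 bases before to 50 bases after a start site, from RefSeq on GRCm38.p6, and matches could overlap. Windows were matched by symbol for 26 members, and Dhx58, Zbp1, Mx1, Mx2, Oas2, Usp18, Rtp4, Parp9 and Parp14 had none. The response element core was present in 13 of the 26 (50%), against 3.82% of the 9848 tested genes with a window. The STAT site was present in 6 of the 26 (23.1%), against 8.21% of those genes. The core was as frequent in 44 other interferon-stimulated genes, at 22 (50%), and it was present in all 9 interferon-gamma induced GTPases with a window, a list whose median with NAC was above zero. The windows below are shown because their genes took different courses with NAC: Isg15, Ifit3 and Oas3 fell and have the core, Stat2 rose and has it, Ifit2 rose and has none, and Irf7 fell and has none. Capitals mark matches to the core, in the direction of transcription.
Isg15 (chr4:156200769-156201068, minus strand): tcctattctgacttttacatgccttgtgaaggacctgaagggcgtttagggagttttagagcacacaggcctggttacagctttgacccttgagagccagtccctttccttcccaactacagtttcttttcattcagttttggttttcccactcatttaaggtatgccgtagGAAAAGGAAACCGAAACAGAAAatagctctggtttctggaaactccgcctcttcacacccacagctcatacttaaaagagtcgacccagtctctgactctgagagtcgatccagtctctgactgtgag
Ifit3 (chr19:34583279-34583578, plus strand): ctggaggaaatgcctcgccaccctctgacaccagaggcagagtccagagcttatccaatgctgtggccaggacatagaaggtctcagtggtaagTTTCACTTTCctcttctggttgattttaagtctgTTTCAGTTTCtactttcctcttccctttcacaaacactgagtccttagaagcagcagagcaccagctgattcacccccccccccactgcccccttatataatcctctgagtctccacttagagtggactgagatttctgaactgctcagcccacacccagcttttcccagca
Oas3 (chr5:120777610-120777909, minus strand): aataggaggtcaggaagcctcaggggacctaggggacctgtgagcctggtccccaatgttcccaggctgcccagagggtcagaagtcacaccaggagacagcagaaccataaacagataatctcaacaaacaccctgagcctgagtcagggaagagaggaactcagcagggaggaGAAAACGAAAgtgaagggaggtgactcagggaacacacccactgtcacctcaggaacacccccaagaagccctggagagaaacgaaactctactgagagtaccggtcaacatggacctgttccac
Stat2 (chr10:128270248-128270547, plus strand): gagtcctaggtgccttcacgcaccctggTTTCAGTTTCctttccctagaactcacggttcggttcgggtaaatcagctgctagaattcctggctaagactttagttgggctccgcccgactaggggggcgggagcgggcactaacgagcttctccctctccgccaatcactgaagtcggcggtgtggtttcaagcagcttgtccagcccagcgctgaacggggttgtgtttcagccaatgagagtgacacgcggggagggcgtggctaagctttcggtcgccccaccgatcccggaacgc
Ifit2 (chr19:34550444-34550743, plus strand): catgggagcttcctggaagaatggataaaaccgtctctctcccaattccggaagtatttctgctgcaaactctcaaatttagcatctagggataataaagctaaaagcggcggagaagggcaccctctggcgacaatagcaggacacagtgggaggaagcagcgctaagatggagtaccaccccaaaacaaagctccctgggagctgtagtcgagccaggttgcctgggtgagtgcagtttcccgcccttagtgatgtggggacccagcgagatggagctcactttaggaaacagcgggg
Irf7 (chr7:141266375-141266674, minus strand): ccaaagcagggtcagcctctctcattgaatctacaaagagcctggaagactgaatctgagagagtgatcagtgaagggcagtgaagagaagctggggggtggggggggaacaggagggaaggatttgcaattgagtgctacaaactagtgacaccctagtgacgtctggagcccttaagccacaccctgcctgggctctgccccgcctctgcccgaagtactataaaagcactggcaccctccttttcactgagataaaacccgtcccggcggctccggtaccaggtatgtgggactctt
Ifit2 has a second window with neither motif. In Isg15, 3 overlapping matches began 78, 72 and 66 bases before the start site. In Ifit3 they began 156 and 122 bases before it, in Oas3 75 bases before it and in Stat2 222 bases before it. A match is a description of the letters only, and a window without one says nothing about binding.

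All 4 sensors fell with NAC. Zbp1, a sensor of left-handed nucleic acid that can trigger cell death, had 65.5, 66.8 and 70.2 TPM with genipin, 44.0, 43.4 and 42.4 with genipin plus NAC, 36.3, 35.04 and 35.6 with NAC and 57.1, 52.9 and 58.3 in vehicle. Its 4 groups did not overlap, and the order was genipin, vehicle, genipin plus NAC, NAC. The log2 fold change was -0.79 ± 0.05 (SE) with NAC against vehicle (edgeR quasi-likelihood test, Benjamini-Hochberg adjusted p = 6.66e-12). Ddx58, which encodes the RNA helicase RIG-I, had 35.7, 36.6 and 35.4 TPM with genipin, 25.6, 24.1 and 23.3 with genipin plus NAC, 20.3, 23.7 and 24.3 with NAC and 24.2, 22.1 and 23.6 in vehicle. By TPM only the genipin libraries stood clear of the rest. By CPM the NAC libraries, at 56.9, 62.52 and 62.6, also lay below all others. Ddx58 rose by 0.47 ± 0.04 on the log2 scale with genipin against vehicle and its value with genipin plus NAC against vehicle was 0.01 ± 0.04, which did not pass the test. NAC against vehicle gave -0.25 ± 0.04, the smallest fall of a called member in that comparison.

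Dhx58, the helicase LGP2 that modulates RIG-I and MDA5, had 28.4, 32.3 and 33.5 TPM with genipin, 24.9, 25.8 and 25.7 with genipin plus NAC, 18.5, 18.1 and 17.4 with NAC and 29.7, 26.6 and 27.3 in vehicle. The genipin and vehicle libraries overlapped, and the NAC libraries were the lowest. Its log2 fold change was -0.86 ± 0.05 with NAC against vehicle and -0.23 ± 0.05 with genipin plus NAC against vehicle. Ifih1, which encodes MDA5, was the least abundant sensor, with 5.34 ± 0.31 TPM with genipin, 3.4 ± 0.68 with genipin plus NAC, 3.3 ± 0.57 with NAC and 4.17 ± 0.37 in vehicle (SD, n = 3 each). Its log2 fold change with NAC against vehicle was -0.60 ± 0.09, and it rose by 0.22 ± 0.09 with genipin against vehicle (edgeR quasi-likelihood adjusted p = 0.0326). The genipin calls of Ifih1 and Zbp1 were lost when any of several single libraries was left out: vehicle replicates 1 or 3 and genipin replicates 2 or 3 for Ifih1, and vehicle replicates 1 or 2 and genipin replicates 2 or 3 for Zbp1. Their log2 values without those libraries were 0.19, 0.23, 0.19 and 0.22 for Ifih1 and 0.11, 0.09, 0.11 and 0.10 for Zbp1.

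The factors split. Irf7, the factor that amplifies interferon production, had 58.2, 56.9 and 54.6 TPM with genipin, 23.4, 27.0 and 24.8 with genipin plus NAC, 13.2, 11.02 and 14.1 with NAC and 47.4, 46.3 and 46.3 in vehicle. No group overlapped another. Irf7 fell by 2.09 on the log2 scale with NAC against vehicle (SE 0.06, edgeR quasi-likelihood adjusted p = 4e-17), and its value with genipin against vehicle, 0.05 ± 0.05, did not pass. With both compounds the log2 fold change against vehicle was -1.03 ± 0.06. An antisense neighbour, Phrf1, shares 45 exon bases with Irf7 at chr7:141262706-141266481, and the strand setting of the counting is not given in the sources used here.

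Irf9, the DNA-binding partner of Stat2, had 49.0, 45.4 and 45.0 TPM with genipin, 36.9, 35.8 and 33.3 with genipin plus NAC, 23.9, 25.6 and 23.7 with NAC and 39.7, 43.4 and 40.8 in vehicle. The NAC libraries were the lowest, followed by those with both compounds, and the log2 fold change was -0.98 ± 0.04 for NAC against vehicle and -0.31 ± 0.04 for genipin plus NAC against vehicle. Stat2 moved the other way. It had 21.98, 18.3 and 20.2 TPM with genipin, 16.8, 18.3 and 18.1 with genipin plus NAC, 27.6, 31.3 and 26.9 with NAC and 21.7, 23.0 and 22.8 in vehicle. By TPM the NAC libraries lay above all others, and the genipin and vehicle libraries overlapped. By CPM genipin lay below vehicle, at 43.39, 41.44 and 47.04 against 56.52, 57.55 and 56.33. Stat2 rose by 0.28 ± 0.05 with NAC against vehicle (edgeR quasi-likelihood adjusted p = 1.81e-05) and fell by 0.37 with genipin against vehicle (SE 0.05). With offsets for the effective lengths deposited per library, the rise with NAC was 0.15 and no longer passed (edgeR quasi-likelihood adjusted p = 0.0981).

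**Figure D2:**
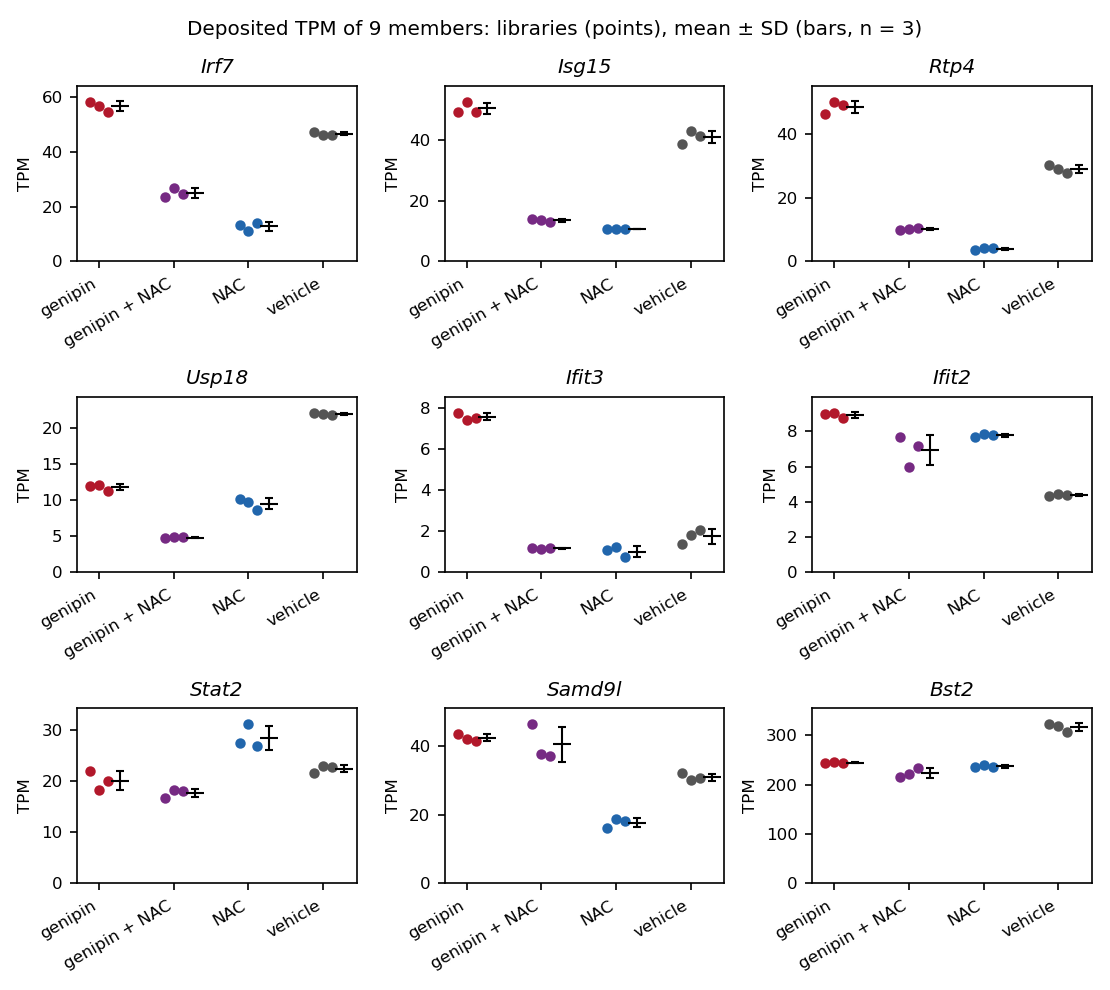
Points are deposited TPM of single libraries for 9 members in each of the 4 groups, and bars are the mean ± SD (n = 3), with each axis starting at 0. Irf7, Isg15 and Rtp4 are lowest with NAC, Usp18 is lowest with both compounds, Ifit3 is high only with genipin, and Ifit2 and Stat2 lie above vehicle with NAC.

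Among the 17 effectors, 15 fell with NAC against vehicle, Ifit2 rose and Ifit3b was not called. Mx1, a dynamin-like GTPase, had 58.6, 53.7 and 55.2 TPM with genipin, 21.9, 21.2 and 23.2 with genipin plus NAC, 11.2, 14.5 and 12.9 with NAC and 41.2, 45.0 and 38.2 in vehicle. The 4 groups did not overlap. Mx1 fell by 2.09 with NAC (SE 0.05) and by 0.94 with genipin plus NAC (SE 0.04), each against vehicle, and rose by 0.27 ± 0.04 with genipin. Its neighbour Mx2, annotated as a polymorphic pseudogene, had 0.717 ± 0.06 TPM with NAC and 5.39 ± 0.2 TPM in vehicle, a log2 fold change of -2.67 ± 0.19. Mx1 and Mx2 share 3.91% and 4.38% of their 50-base stretches, almost all with each other.

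Bst2, or tetherin, which holds budding virions at the cell surface, was the most abundant member. It had 244, 245.3 and 244 TPM with genipin, 215, 222 and 233 with genipin plus NAC, 235, 241 and 236 with NAC and 323, 318 and 307 in vehicle. The vehicle libraries lay above all others, while the other groups lay close together. Bst2 fell by 0.50 with genipin, by 0.56 with genipin plus NAC and by 0.62 with NAC (SE 0.04 each), each against vehicle. Genipin plus NAC against genipin gave -0.06 ± 0.04, which did not pass, though it did without genipin plus NAC replicate 3, at -0.10.

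Isg20, an exonuclease that degrades viral RNA, had 81.8, 81.2 and 82.2 TPM with genipin, 44.4, 44.6 and 47.9 with genipin plus NAC, 34.6, 35.6 and 32.9 with NAC and 77.0, 68.7 and 70.6 in vehicle. These groups did not overlap, but the genipin difference of 0.05 ± 0.05 on the log2 scale, from counts, did not pass. The fall was 1.22 with NAC (SE 0.06) and 0.67 with genipin plus NAC (SE 0.05). Eif2ak2, the kinase PKR that halts translation on sensing double-stranded RNA, had 24.1, 26.0 and 24.4 TPM with genipin, 17.6, 14.5 and 14.7 with genipin plus NAC, 12.7, 13.4 and 14.5 with NAC and 19.5, 18.2 and 18.3 in vehicle. It rose by 0.20 ± 0.05 with genipin and fell by 0.57 with NAC and by 0.52 with both (SE 0.05 each). Libraries with both compounds overlapped those with NAC, and genipin plus NAC against NAC gave 0.05 ± 0.05, which did not pass. With offsets for effective length that value was 0.33 and passed (edgeR quasi-likelihood adjusted p = 0.0016).

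Samd9l, a restriction factor for poxviruses, fell with NAC alone and lay above vehicle with both compounds. It had 43.5, 42.2 and 41.5 TPM with genipin, 46.5, 37.9 and 37.2 with genipin plus NAC, 16.2, 18.8 and 18.2 with NAC and 32.1, 30.2 and 30.6 in vehicle. Libraries with NAC alone were the lowest, and those with both compounds overlapped those with genipin. Its log2 fold change was -1 ± 0.06 with NAC against vehicle, 0.32 ± 0.06 with genipin plus NAC against vehicle and 0.00 ± 0.06 with genipin plus NAC against genipin. The last value was -0.10 without genipin plus NAC replicate 1, and it then passed (edgeR quasi-likelihood adjusted p = 0.0235).

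The 4 Ifit genes, whose products bind viral RNA and block its translation, lie together at chr19:34550694-34650009 in the order Ifit2, Ifit3, Ifit3b, Ifit1. All 4 rose with genipin, and Ifit2 parted from the others with NAC. Ifit2 had 8.98, 9.05 and 8.76 TPM with genipin, 7.67, 5.98 and 7.16 with genipin plus NAC, 7.70, 7.85 and 7.81 with NAC and 4.32, 4.46 and 4.40 in vehicle. The vehicle libraries were the lowest. The log2 fold change was 0.92 ± 0.07 with genipin, 0.59 ± 0.07 with genipin plus NAC and 0.59 ± 0.07 with NAC, each against vehicle. Ifit2 shares no 50-base stretch with another gene.

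Ifit3 had 7.75, 7.42 and 7.51 TPM with genipin, 1.19, 1.14 and 1.19 with genipin plus NAC, 1.07, 1.23 and 0.74 with NAC and 1.36, 1.84 and 2.06 in vehicle. Genipin libraries stood far above the rest, and NAC removed this rise. The log2 fold change was 1.959 ± 0.15 with genipin against vehicle, -0.999 ± 0.20 with NAC against vehicle and -2.61 ± 0.16 with genipin plus NAC against genipin. Ifit1 took a similar course, with 7.9 ± 0.47, 2.33 ± 0.23, 1.963 ± 0.29 and 3.62 ± 0.4 TPM (SD, n = 3 each) with genipin, with genipin plus NAC, with NAC and in vehicle. Its values were 0.99 ± 0.10 with genipin and -1.09 ± 0.12 with NAC, each against vehicle. Ifit3b had 36, 26 and 42 counts with genipin, 2, 0 and 2 with genipin plus NAC, 2, 6 and 4 with NAC and 8, 4 and 5 in vehicle. Its call with genipin plus NAC against vehicle (-2.02 ± 0.72) was lost without vehicle replicate 1 or genipin plus NAC replicate 2, at -1.65 and -1.54. Ifit3 and Ifit3b share 51.2% and 45.0% of their 50-base stretches with other genes, nearly all with each other, so the division of reads between them is uncertain.

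The oligoadenylate synthetases, which make the messenger that activates RNase L, and their relatives Oasl1 and Oasl2 all fell with NAC. Oas3 had 39.6, 38.8 and 39.2 TPM with genipin, 23.9, 26.5 and 25.6 with genipin plus NAC, 25.2, 24.95 and 24.9 with NAC and 48.3, 47.7 and 46.4 in vehicle. Both groups with NAC lay together at the bottom and vehicle lay at the top. Oas3 fell by 0.43 with genipin and by 1.103 with NAC (SE 0.03 each), each against vehicle. Oas1a had 10.3, 9.32 and 10.3 TPM with genipin, 5.55, 5.45 and 4.74 with genipin plus NAC, 2.76, 2.94 and 2.45 with NAC and 12.7, 12.5 and 12.6 in vehicle. None of its groups overlapped, and it fell by 0.47 with genipin (SE 0.08), by 1.33 with genipin plus NAC (SE 0.08) and by 2.41 with NAC (SE 0.09). Oas1a shares 57.6% of its 50-base stretches with Oas1g, which was at 0 or 0.08 TPM in every library.

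Oasl1 had 1.76, 2.05 and 2.38 TPM with genipin, 0.46, 1.00 and 0.55 with genipin plus NAC, 0.94, 0.97 and 1.53 with NAC and 2.49, 2.72 and 2.7 in vehicle, from 18 to 120 counts per library. Vehicle libraries were the highest, and the groups with NAC overlapped. It fell by 0.78 with genipin (SE 0.17), by 2.12 with genipin plus NAC (SE 0.20) and by 1.51 with NAC (SE 0.19). Length offsets ended the genipin call of Oasl1, at -0.49. Oas2, with 3 to 38 counts per library, and Oasl2, with 14 to 52, fell by 1.40 (SE 0.46) and 0.98 (SE 0.24) with NAC. Leaving out NAC replicate 1 or NAC replicate 3 ended the Oas2 call, at -1.15 and -1.21, and length offsets ended that of Oasl2, at -0.59. Length offsets also ended the Oasl2 calls of genipin plus NAC against vehicle and against genipin, at -0.57 and -0.79.

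Rsad2 (viperin) and Cmpk2 are neighbours on chromosome 12 whose products alter the nucleotide pool used by viral polymerases. Rsad2 had 4.07, 4.26 and 3.44 TPM with genipin, 2.39, 2.36 and 2.06 with genipin plus NAC, 2.24, 3.07 and 2.48 with NAC and 4.30, 3.96 and 4.21 in vehicle. By TPM genipin libraries overlapped vehicle, and both groups with NAC lay below. By CPM genipin lay below vehicle, at 12.3, 12.86 and 10.39 against 14.15, 13.19 and 13.93. Rsad2 fell by 0.95 with NAC (SE 0.10) and by 0.22 with genipin (SE 0.09, edgeR quasi-likelihood adjusted p = 0.0409). Cmpk2 had 9.76 ± 2.2, 2.07 ± 0.25, 1.83 ± 0.13 and 7.29 ± 0.7 TPM (SD, n = 3 each) with genipin, with genipin plus NAC, with NAC and in vehicle. It fell by 2.12 with NAC (SE 0.09) and rose by 0.17 ± 0.07 with genipin (edgeR quasi-likelihood adjusted p = 0.0455). That rise no longer passed when any of the 6 libraries compared was left out, at 0.14 to 0.19, and the fall of Rsad2 with genipin no longer passed without vehicle replicates 1 or 3 or genipin replicate 3, at -0.20, -0.21 and -0.13.

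**Figure D3:**
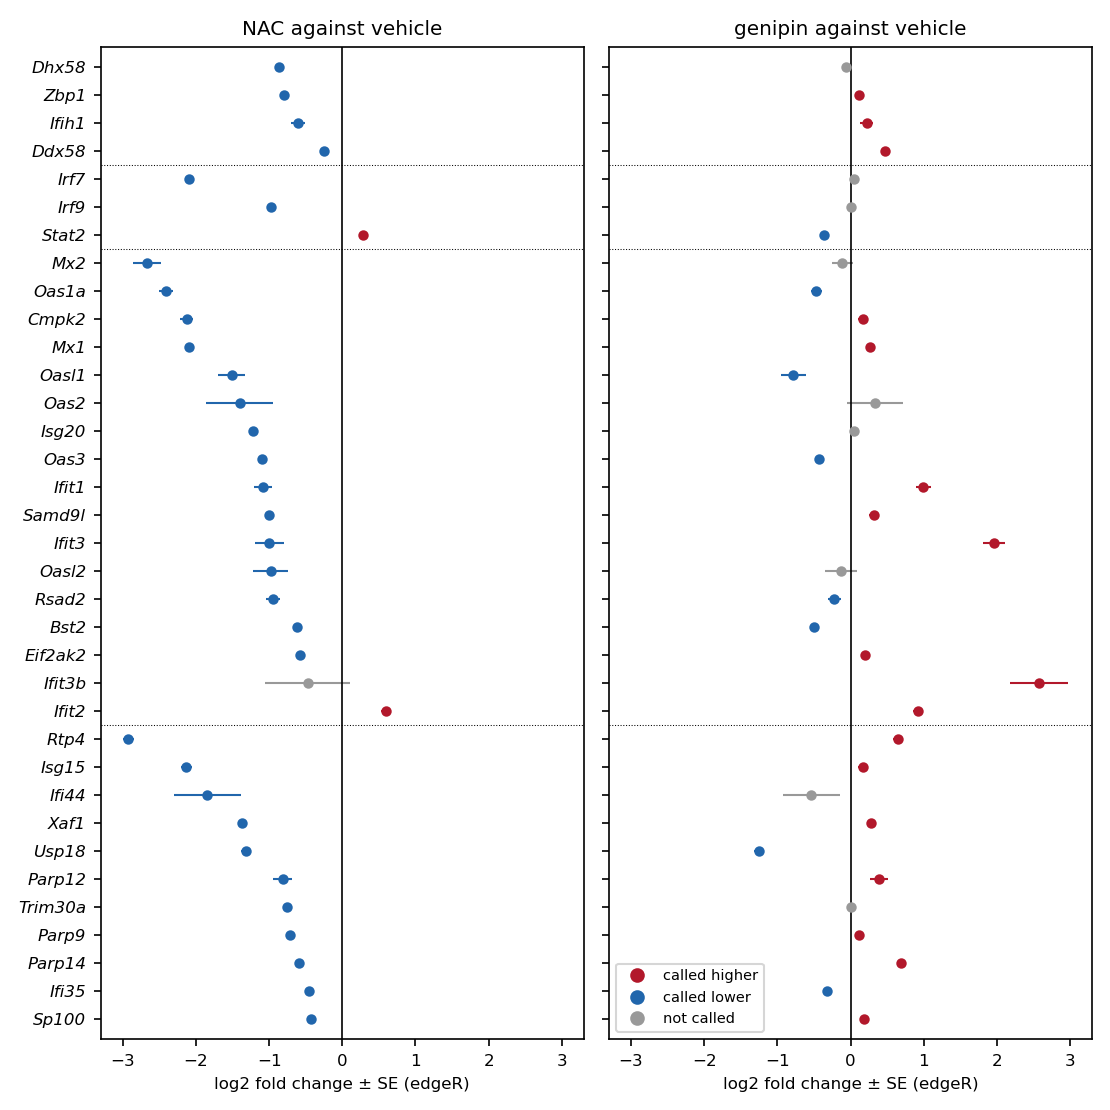
Points are log2 fold changes from edgeR and lines their standard errors, for 35 members by role, with NAC against vehicle on the left and genipin against vehicle on the right; red was called higher, blue lower and grey was not called. With NAC all but Ifit2, Stat2 and Ifit3b are blue, and with genipin most points lie within 1 of zero.

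All 11 regulators and other response genes fell with NAC, and with genipin plus NAC, against vehicle. With both compounds the call of Parp12 was lost without vehicle replicate 2 or 3 or genipin plus NAC replicate 3, at -0.21, -0.35 and -0.33, and that of Ifi44 without genipin plus NAC replicate 1, at -1.03. Length offsets also ended these calls of Parp12 and Ifi44, at -0.34 and -1.42. Sp100, the nuclear body protein that restricts viral genomes, had 189, 192 and 184 TPM with genipin, 136, 126 and 127 with genipin plus NAC, 126, 130.3 and 139 with NAC and 158, 148 and 156 in vehicle. Genipin libraries were the highest, and the groups with NAC overlapped below vehicle. Its log2 fold change was 0.19 ± 0.03 with genipin and -0.42 ± 0.03 with NAC, each against vehicle. Between genipin plus NAC and NAC the fitted value was 0.15 ± 0.03, whereas mean TPM was 130 ± 5.4 with genipin plus NAC and 132 ± 6.8 with NAC (SD, n = 3 each).

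Parp9, an ADP-ribosyltransferase that works with Dtx3l in interferon signalling, had 65.6, 68.0 and 68.8 TPM with genipin, 55.1, 49.5 and 48.2 with genipin plus NAC, 38.6, 39.7 and 38.0 with NAC and 58.2, 54.4 and 55.4 in vehicle. NAC libraries were the lowest and genipin libraries the highest. Parp9 fell by 0.71 with NAC (SE 0.04) and rose by 0.12 ± 0.04 with genipin, a call that was lost without genipin replicate 2, at 0.11. It shares 458 exon bases with Dtx3l on the opposite strand. Parp14 rose by 0.69 ± 0.04 with genipin and fell by 0.59 with NAC (SE 0.04), at 29.4 ± 1 TPM with genipin, 12.5 ± 0.25 with NAC and 16.6 ± 0.37 in vehicle (SD, n = 3 each). Parp12 was lower in abundance, at 3.74 ± 0.28 TPM with genipin, 1.74 ± 0.07 with NAC and 2.59 ± 0.54 in vehicle (SD, n = 3 each), and was called in the same directions, though its genipin call was lost without vehicle replicate 1, at 0.24.

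Usp18, the protease that removes ISG15 from proteins and blocks the interferon receptor, fell with either compound and was lowest with both. It had 12.02, 12.1 and 11.3 TPM with genipin, 4.70, 4.87 and 4.89 with genipin plus NAC, 10.1, 9.77 and 8.65 with NAC and 22.1, 21.9 and 21.8 in vehicle. No group overlapped another by TPM. By CPM genipin, at 11.87, 11.65 and 12.14, overlapped NAC, at 12.19, 11.56 and 10.36. The fall was 1.25 with genipin (SE 0.07), 2.21 with genipin plus NAC (SE 0.07) and 1.32 with NAC (SE 0.07), each against vehicle (edgeR quasi-likelihood adjusted p = 9.9e-13, 6.43e-16 and 5.72e-13). Isg15, the ubiquitin-like modifier that Usp18 removes, had 50.3 ± 1.8, 13.6 ± 0.46, 10.8 ± 0.059 and 40.9 ± 2.1 TPM (SD, n = 3 each) with genipin, with genipin plus NAC, with NAC and in vehicle. It fell by 2.13 with NAC (SE 0.08) and by 1.66 with genipin plus NAC (SE 0.07). Its rise of 0.17 ± 0.06 with genipin was lost without vehicle replicates 1 or 3 or genipin replicate 2, at 0.13, 0.18 and 0.14.

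Ifi35, a partner of Nmi in interferon signalling, had 60.1, 64.1 and 64.0 TPM with genipin, 48.1, 47.8 and 48.3 with genipin plus NAC, 58.6, 62.3 and 58.2 with NAC and 72.9, 69.3 and 71.6 in vehicle. Genipin and NAC libraries overlapped, between vehicle above and both compounds below. It fell by 0.32 with genipin, by 0.64 with genipin plus NAC and by 0.45 with NAC (SE 0.04 each). Rtp4, a zinc-finger protein first known as a receptor chaperone, had the largest fall of the 35 with NAC against vehicle, at -2.92 ± 0.08. Its mean TPM was 48.3 ± 1.9 with genipin, 10.2 ± 0.3 with genipin plus NAC, 4.01 ± 0.33 with NAC and 28.9 ± 1.2 in vehicle (SD, n = 3 each), and it rose by 0.64 ± 0.06 with genipin.

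Xaf1, an antagonist of the apoptosis inhibitor XIAP, fell by 1.36 with NAC (SE 0.06) and rose by 0.28 ± 0.05 with genipin, with 55.1 ± 3.4 TPM with genipin, 19.7 ± 1.7 with NAC and 45.4 ± 3.4 in vehicle (SD, n = 3 each). Length offsets ended the genipin call of Xaf1, at 0.15. Trim30a, a ubiquitin ligase family member that restrains inflammatory signalling in mice, fell by 0.75 with NAC (SE 0.05) and did not pass with genipin, at 0.01 ± 0.05. Ifi44 had 10, 8 and 18 counts with genipin, 2, 8 and 10 with genipin plus NAC, 4, 4 and 6 with NAC and 17, 15 and 20 in vehicle. It fell by 1.84 with NAC (SE 0.46), a call that ended with length offsets, at -0.57. Its mean TPM was almost level, at 0.3467 ± 0.24 with NAC and 0.35 ± 0.05 in vehicle (SD, n = 3 each).

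The effect of genipin was also measured on top of NAC. With genipin plus NAC against NAC, 20 members were higher, 4 were lower and 11 were not called, beside 26.6% of all genes higher and 26.5% lower. The median log2 fold change of the members was 0.30. Called higher with genipin both without and with NAC were 13 members, among them Rtp4 (0.64 ± 0.06 without and 1.44 ± 0.09 with NAC), Mx1 (0.27 ± 0.04 and 1.16 ± 0.05) and Samd9l (0.32 ± 0.06 and 1.32 ± 0.06). Stat2, Oasl1, Usp18 and Ifi35 were lower in both settings. Oas1a and Oas3 were lower with genipin in the absence of NAC and higher in its presence, at 1.08 ± 0.10 and 0.13 ± 0.03 with NAC. How many of all genes were called in both settings, in the same or in opposite directions, was not counted. By fitted value, 27 of the 32 members that fell with NAC against vehicle stood closer to vehicle, or above it, with both compounds. These 32 were picked for low values in the NAC libraries, which by itself favours such a count. The count was not made over all genes, so no conclusion is drawn from it. The difference has its own test only in genipin plus NAC against NAC. Without normalization factors the Oas3 value was 0.05 and did not pass. Leaving out single libraries also ended the calls of Ifit1 (genipin plus NAC replicate 2, NAC replicates 2 or 3, at 0.32, 0.34 and 0.33), Cmpk2 (genipin plus NAC replicate 2, NAC replicates 1 or 2, at 0.21, 0.28 and 0.27) and Mx2 (genipin plus NAC replicate 3 or NAC replicate 3, at 0.54 and 0.55). The Oasl1 call in genipin plus NAC against NAC (-0.61 ± 0.23) was lost without genipin plus NAC replicate 1 or 3 or NAC replicate 2 or 3, at -0.47, -0.45, -0.60 and -0.59.

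The interaction, meaning the log2 change by genipin in the presence of NAC less the change in its absence, was called higher for 16 members and lower for 7, beside 27.4% and 24% of all genes. Its median was 0.23 over the members and 0.03 over all genes tested. The sensors Dhx58 (0.70 ± 0.07) and Zbp1 (0.23 ± 0.07), the factors Irf7 (1.01 ± 0.08) and Irf9 (0.66 ± 0.06) and effectors such as Oas1a (1.55 ± 0.13) and Samd9l (1.00 ± 0.08) had positive values. Negative values were found for all 4 Ifit genes, for Parp14 (-0.48 ± 0.06), for Ddx58 (-0.21 ± 0.06) and for Stat2 (-0.22 ± 0.07). Ifit3 stood at -1.61 ± 0.27, Ifit2 at -0.93 ± 0.10 and Ifit1 at -0.60 ± 0.17. Without scaling of library totals the median interaction over all genes moved to -0.11, and members then gave 12 higher and 9 lower. Over all genes the share of calls that were higher was 35.3% without that scaling and 53.3% with it.

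**Figure D4:**
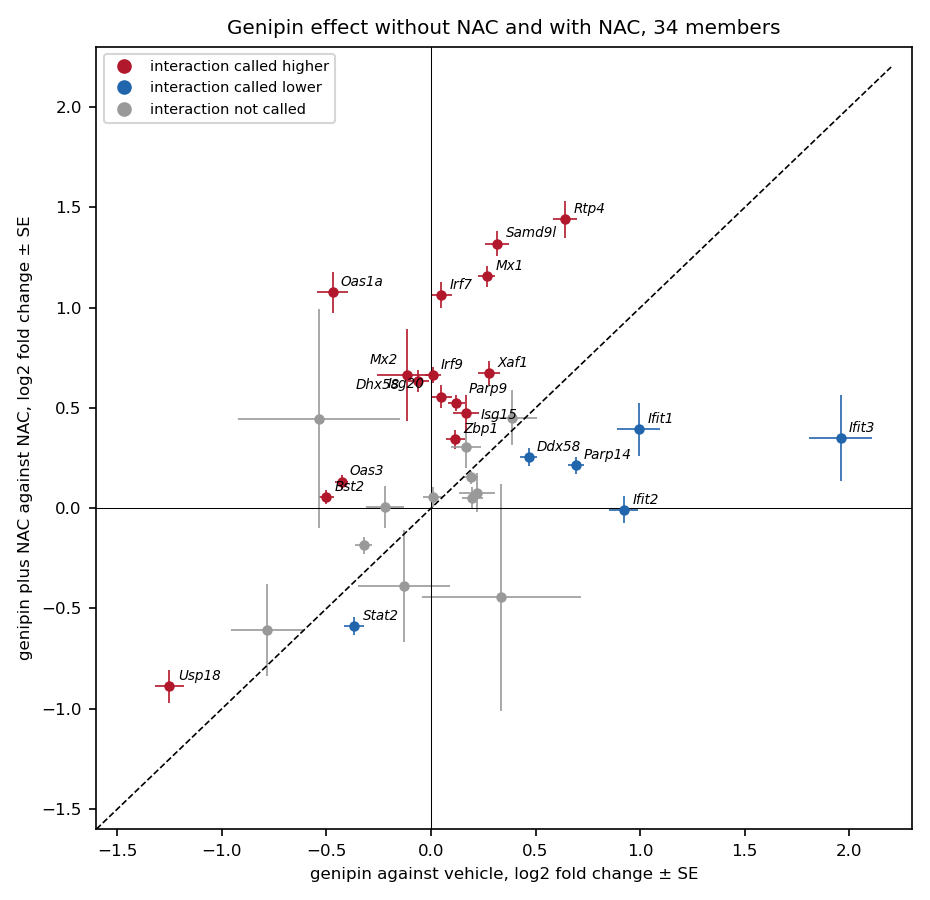
Each point is a member, with the log2 fold change of genipin against vehicle on the horizontal axis and of genipin plus NAC against NAC on the vertical axis, lines giving standard errors and the dashed line equal effects; Ifit3b is left out for its low counts. Points above the line, such as Oas1a, Samd9l, Irf7 and Rtp4, have a positive interaction, and Ifit1, Ifit2, Ifit3 and Parp14 lie below it.

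Other genes of the pathway were read from lists. The 20 genes of type I and type III interferons had 18 counts in all over the 12 libraries, and 16 of them had none. Ifnb1, which encodes interferon beta, had 3 counts in vehicle replicate 3 and none elsewhere. A count of 0 allows up to 3 counts in a library, which is 0.0965 to 0.144 CPM. Interferon transcripts were thus near or below what this depth can show, in every group.

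The receptor chains Ifnar1 and Ifnar2 rose with NAC. Ifnar2 had 14.5, 14.0 and 14.9 TPM with genipin, 36.6, 32.8 and 34 with genipin plus NAC, 46.7, 48.1 and 50.1 with NAC and 20.1, 17.6 and 20.5 in vehicle. Its groups did not overlap, and it rose by 1.12 ± 0.06 with NAC against vehicle, as did Ifnar1 by 0.50 ± 0.04. Of 8 receptor and kinase genes tested, 6 were higher and 2 lower with NAC, the lower ones being Jak1 (-0.10 ± 0.03) and Tyk2 (-0.15 ± 0.04) by the fit to counts. By TPM these directions turned, with Jak1 at 99.9 to 107 TPM with NAC and 94.0 to 95.4 TPM in vehicle, and Tyk2 at 29.5 to 29.7 TPM with NAC and 28.2 to 28.9 TPM in vehicle. Among 12 other STAT and IRF factors, 6 were higher and 3 lower with NAC, including Irf1 (0.42 ± 0.04) and Irf4 (-0.72 ± 0.03). Over all genes tested, 29.6% were called higher and 30% lower with NAC against vehicle. The feedback inhibitor Socs1 was not called in any of the 6 comparisons.

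A longer list of 50 other interferon-stimulated genes had 43 lower and 3 higher with NAC against vehicle, beside 30% and 29.6% of all genes. The median log2 fold change of the list was -0.56. Ifitm1, a membrane protein that blocks viral entry, averaged 1603 TPM with NAC and 4821 TPM in vehicle, a log2 fold change of -1.79 ± 0.04. Of 16 interferon-gamma induced GTPases, 9 were higher and 6 lower with NAC, with a median of 0.20, among them Gbp8 (1.05 ± 0.05) and Tgtp2 (-0.72 ± 0.05). Ifng itself had 81.3, 82.95 and 80.5 TPM with genipin, 163, 155 and 150.2 with genipin plus NAC, 145, 141 and 140.3 with NAC and 109, 100 and 110 in vehicle. It fell by 0.53 with genipin (SE 0.04) and rose by 0.18 ± 0.04 with NAC. The difference between the lists was not tested.

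**Figure D5:**
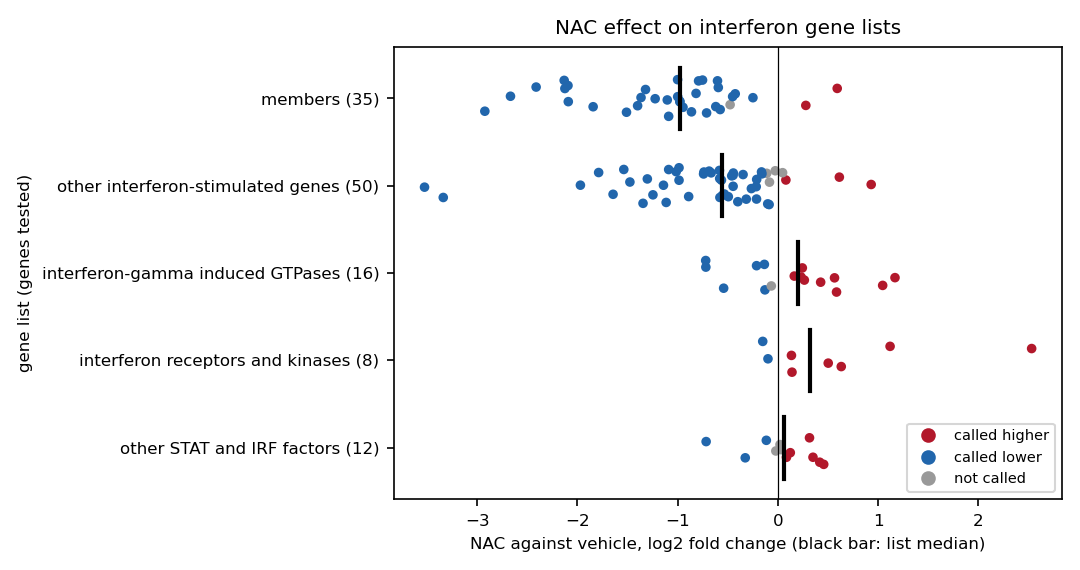
Points are genes tested, placed by their log2 fold change with NAC against vehicle, in the members and 4 other lists, with red called higher, blue lower and grey not called, and black bars at list medians. The members and the other interferon-stimulated genes lie mostly below zero, with medians of -0.98 and -0.56, and the interferon-gamma induced GTPases and the receptors and kinases have medians of 0.20 and 0.32.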

How the data were processed

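Groups were taken from the labels of the 12 libraries. The submitters' processing notes name, without their roles, bcl2fastq, cutadapt (version 1.18), STAR (version 2.7.0f), RSEM (version 1.3.1) and the build mm10. The library kit keeps strand, and the strand setting of the counting is not given in the sources used here. Each library has its own gene table from the authors with expected counts, TPM, FPKM and effective lengths, per the file headers. The deposited FPKM was not analysed here. Symbols and IDs of all 55450 genes matched GENCODE mouse release 21, the source of positions.

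The authors' expected counts were rounded, and filterByExpr (edgeR 4.0.16, R 4.3.3) kept 13636 genes. TMM factors ran from 0.961 to 1.05. The model had 1 mean for each group over the 12 libraries, and 6 contrasts were tested with edgeR's quasi-likelihood F test. A gene was called at a Benjamini-Hochberg adjusted p under 0.05 over all genes tested. Values after ± with a fold change are standard errors, derived as the absolute log2 fold change over the square root of F. The steps were tested on simulated counts. Floors of 3 counts cover counting error only.

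Members and lists were chosen with earlier results of these data known. All 35 members are named. Values in every library are given for the 3 most abundant sensors, factors and regulators, the 6 most abundant effectors and every member called against the majority with genipin or NAC. From each other list, up to 4 genes with the smallest p in either of those comparisons could be named, and the others named (Ifnb1, Tyk2, Jak1 with NAC, Socs1) were chosen after their values were seen, as were the Ifit3, Ifit3b and Ifi44 values per library. Same-numbered replicates of different groups were compared by log2 CPM less the mean of their own group, over all genes tested. These deviations correlated between -0.0751 and 0.0437 over 18 pairs, so none were treated as pairs.

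Alternatives were RLE size factors, no normalization factors, unfiltered genes, genes with at least 5 CPM on average, DESeq2 1.42.0, limma-voom (limma 3.58.1), only the groups compared, offsets from the deposited effective lengths, the replicate number as a block, an adjusted p under 0.01, a 2-fold minimum, each library left out and CPM in place of TPM. Promoters came from RefSeq on GRCm38.p6. Shared sequence was counted as stretches of 50 bases found in transcripts of other genes. Figures were drawn with matplotlib 3.10.9. Results for some genes of the other lists are not reported here.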

Additional observations from a re-analysis of the deposited data

Results flagged for a closer look

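The effect of genipin differed between cells without NAC and cells with NAC in 23 of the 35 members, by the interaction term of the edgeR quasi-likelihood fit at an adjusted p under 0.05 (16 higher and 7 lower). Over all genes tested, 27.4% were called higher and 24% lower by the same term. The values that follow are log2 fold changes of genipin with NAC minus those without it, from 3 libraries in each group. Among sensors, Dhx58 was at 0.70, Zbp1 at 0.23 and Ddx58 at -0.21. The factors had 1.01 for Irf7, 0.66 for Irf9 and -0.22 for Stat2. Positive values among effectors were 1.55 for Oas1a, 1.00 for Samd9l, 0.89 for Mx1, 0.78 for Mx2, 0.56 for Oas3, 0.56 for Bst2 and 0.51 for Isg20. Negative ones were -0.60 for Ifit1, -0.93 for Ifit2, -1.61 for Ifit3 and -4.12 for Ifit3b, whose fitted value depends on the prior count because its libraries with both compounds held 2, 0 and 2 counts. The regulators had 0.80 for Rtp4, 0.40 for Parp9, 0.40 for Xaf1, 0.36 for Usp18, 0.31 for Isg15 and -0.48 for Parp14. The Isg15 call was lost without vehicle replicate 2, genipin replicate 1 or NAC replicate 3, at 0.27, 0.28 and 0.30, and that of Mx2 without genipin plus NAC replicate 3 or NAC replicate 3, at 0.66 and 0.66. Oas2, which was not called, passed at -2.19 without genipin plus NAC replicate 1. Without normalization factors the calls of Mx2, Zbp1, Usp18 and Isg15 were lost, at 0.64, 0.08, 0.22 and 0.16, and with length offsets those of Usp18 and Stat2, at 0.18 and -0.27. Calls were gained without normalization factors for Eif2ak2 and Sp100, at -0.29 and -0.18. They were also gained for Eif2ak2 without genipin plus NAC replicate 1, at -0.18, and for Ifi35 without that library, without NAC replicate 2 or with genes of at least 5 CPM, at 0.15, 0.17 and 0.15.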

How the results depend on the processing

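No fitted value of a called member changed sign under any alternative fit, while by mean TPM Sp100 in genipin plus NAC against NAC did. Samd9l in genipin plus NAC against genipin, not called at 0.00, ran from -0.10 to 0.051 as libraries were left out and passed at -0.10 without genipin plus NAC replicate 1. A minimum of 2-fold left, of members higher and lower, 2 and 1 with genipin against vehicle, 0 and 16 with NAC, 0 and 12 with both compounds, 13 lower in genipin plus NAC against genipin, 5 and 0 against NAC, and 3 and 2 for the interaction. Over all genes it left 1336, 1352, 1083, 1995, 805 and 1345 of the 8312, 8134, 7826, 9446, 7239 and 7008 calls in the same order. Effective length offsets left 1 member higher with NAC against vehicle, since Stat2 was lost, and 30 lower. With genipin against vehicle they left 14 members higher and 6 lower, beside 3436 and 3632 of 13636 genes. DESeq2 gave 16 and 7 there, beside 3908 and 3972 of 13636, and the calls of Isg15, Cmpk2 and Rsad2 were lost. Unfiltered genes gave 15 and 8, beside 4002 and 4325 of 23087.

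Leaving out each library gave 13 to 17 members higher and 7 to 8 lower with genipin against vehicle, 2 higher and 31 to 32 lower with NAC, 2 higher and 31 lower with both, 0 higher and 31 to 32 lower in genipin plus NAC against genipin, 18 to 21 higher and 3 to 4 lower against NAC, and 14 to 17 higher and 7 to 9 lower for the interaction. All genes called ran from 7724 to 7772, 7494 to 7695, 7162 to 7701, 8914 to 9350, 6528 to 7222 and 6641 to 7237 in the same order. With the replicate block, 17 members were higher and 8 lower with genipin against vehicle, since Cmpk2 was lost, and no other member call changed; pairing was not shown. No normalization factors raised the share of calls that were higher with NAC against vehicle to 67.5%, against 49.7%, and lowered it to 35.9%, against 50.2%, in genipin plus NAC against NAC; members then gave 2 higher and 32 lower, and 17 higher and 4 lower. By CPM in place of TPM, 1 member was lowest with genipin, 1 highest with both compounds and 6, not 12, lowest with both. Only the groups compared gives no interaction. Causes were not tested. Members under 50 counts per library (Ifit3b, Oas2, Ifi44) are limited by depth.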

Other observations

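Genes of nucleic acid sensing and clearance were read from lists outside the 35 members. With genipin against vehicle, 7 of 12 sensing genes tested were higher and 1 was lower, and 5 of 9 clearance genes were higher and 4 lower. Over all genes tested, 29.9% were called higher and 31% lower in that comparison. Cgas, the DNA sensor that makes the messenger for STING, had 5.27, 5.54 and 4.74 TPM with genipin, 2.34, 2.19 and 1.75 with genipin plus NAC, 2.72, 3.11 and 2.94 with NAC and 2.34, 2.19 and 2.06 in vehicle. Genipin libraries stood above all others, and the log2 fold change against vehicle was 1.12 ± 0.09. Tmem173, which encodes STING, rose by 0.36 ± 0.04 with genipin and fell by 0.31 with NAC (SE 0.04). Trex1, the exonuclease that clears DNA from the cytosol, had 33.9, 35.6 and 36.8 TPM with genipin, 72.4, 78.8 and 79.3 with genipin plus NAC, 67.3, 61.8 and 64.9 with NAC and 69.2, 67.9 and 67.3 in vehicle. It fell by 1.07 with genipin against vehicle (SE 0.05), and adding NAC to genipin raised it by 1.184 ± 0.05. Adar, which edits double-stranded RNA, rose by 0.52 ± 0.04 with genipin and fell by 0.67 with NAC (SE 0.05).

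Of 50 other interferon-stimulated genes tested, 24 were higher and 17 lower with genipin against vehicle, beside 29.9% and 31% of all genes. The median log2 fold change of the list was 0.13. Slfn2, which keeps T cells in quiescence, averaged 80.6 TPM with genipin and 29.4 TPM in vehicle (1.32 ± 0.04), and Ifi208, a member of the DNA-binding interferon-inducible family, 21.2 and 5.81 TPM in the same groups (1.73 ± 0.06). With NAC, Ifi203, of the same family, rose by 0.93 against vehicle and was among the 3 genes of that list called higher.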
